A study of Mus musculus with 6 samples.

Results

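The placental prolactin, pregnancy-specific glycoprotein and placental cathepsin families, with the trophoblast-specific proteins Tpbpa and Tpbpb, were followed in the muscle layer of the mouse uterus. Members were taken by gene symbol from the deposited table (Prl2 to Prl8 genes, Psg genes, the cathepsin genes Ctsj, Ctsm, Ctsq, Ctsr, Cts3, Cts6, Cts7 and Cts8, and Tpbpa and Tpbpb), which gave 48 of 55055 genes. From their known sites of expression in mice, 2 members (Prl8a2 and Prl3c1) were taken as decidual, 1 (Prl6a1) as decidual and trophoblast, and 45 as trophoblast, made up of 22 Prl, 13 Psg, 8 Cts and 2 Tpbp genes. RNA came from the myometrium of 3 pregnant mice lacking Tcf23, a knockout (KO) made with CRISPR/Cas9, and of 3 wild-type (WT) pregnant mice, with 1 library per animal. All were near term, at E19.5 by the labels and day 19 of gestation by the series description. Strain, maternal age, fetal genotype and how the placenta and decidua were taken off the muscle are not stated there.

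The mouse prolactin family has expanded into many genes that are used mainly in the pregnant uterus. Trophoblast, the fetal cell layer of the placenta, secretes placental lactogens and related hormones, while the decidua, the transformed maternal stroma at the implantation site, secretes a few others. Psg proteins are secreted immunoglobulin-like proteins of trophoblast, and the placental cathepsins are rodent-specific papain-type proteases. None of these genes is known as a product of smooth muscle.

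The libraries held 65036402, 55643651 and 39939686 counts in KO replicates 1, 2 and 3, and 47345181, 52733490 and 55236312 in WT replicates 1, 2 and 3. Levels are given in CPM, the count of a gene scaled to the total of its library. Tcf23 itself had 0, 2 and 1 counts in KO and 4203, 5970 and 3360 in WT, so the labels matched in 6 of 6 libraries. All 10 smooth muscle markers were found, at a summed 34860, 40300 and 16310 CPM in KO replicates 1, 2 and 3 and 32540, 31910 and 28210 CPM in WT replicates 1, 2 and 3, so KO replicate 3 held the least muscle RNA.

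No upstream window was available for Prl8a2. Upstream sequences of 5 other members named in the results are shown. Prl6a1 was higher in each KO library, Prl2a1 and Prl3b1 took opposite positions in 1 WT library, and Psg21 and Psg23 moved as a pair. Each runs from 250 bases before to 50 bases after the start in RefSeq, which for Prl3b1 lies inside the gene span of the deposited table (RefSeq, GRCm38.p6), 5′ to 3′ on the gene's strand. Capitals mark the motifs found among 3 searched on both strands. TATAAA is the core of the TATA box. AGATAA is a form of the site of GATA factors. The third, TGANTCA, is a form of the site of AP-1 factors. In the 5 windows no 2 matches overlap. The windows are chr13:27312377-27312676 (plus strand) for Prl6a1, chr13:27801405-27801704 (plus) for Prl2a1, chr13:27242180-27242479 (plus) for Prl3b1, chr7:18656676-18656975 (minus) for Psg21 and chr7:18616452-18616751 (minus) for Psg23.
Prl6a1: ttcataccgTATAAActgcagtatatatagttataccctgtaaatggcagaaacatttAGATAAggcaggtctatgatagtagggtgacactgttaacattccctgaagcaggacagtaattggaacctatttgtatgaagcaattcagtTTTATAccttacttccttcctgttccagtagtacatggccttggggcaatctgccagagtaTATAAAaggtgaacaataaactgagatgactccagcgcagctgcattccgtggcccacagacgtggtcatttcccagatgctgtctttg
Prl2a1: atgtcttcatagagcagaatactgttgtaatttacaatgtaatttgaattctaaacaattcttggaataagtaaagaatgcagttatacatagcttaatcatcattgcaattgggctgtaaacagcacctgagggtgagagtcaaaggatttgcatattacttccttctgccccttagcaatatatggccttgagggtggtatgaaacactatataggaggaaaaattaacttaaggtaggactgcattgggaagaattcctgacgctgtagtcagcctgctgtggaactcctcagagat
Prl3b1: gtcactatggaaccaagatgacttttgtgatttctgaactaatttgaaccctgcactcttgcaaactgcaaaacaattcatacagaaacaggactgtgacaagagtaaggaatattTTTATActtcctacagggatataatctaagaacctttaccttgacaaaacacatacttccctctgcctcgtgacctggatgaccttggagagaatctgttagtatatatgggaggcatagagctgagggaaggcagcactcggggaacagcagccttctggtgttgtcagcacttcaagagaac
Psg21: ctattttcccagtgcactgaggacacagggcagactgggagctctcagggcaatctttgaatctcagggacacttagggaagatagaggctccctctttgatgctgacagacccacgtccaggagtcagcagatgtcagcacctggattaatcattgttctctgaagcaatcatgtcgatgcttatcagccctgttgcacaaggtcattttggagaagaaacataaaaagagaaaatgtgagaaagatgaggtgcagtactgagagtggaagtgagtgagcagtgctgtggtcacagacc
Psg23: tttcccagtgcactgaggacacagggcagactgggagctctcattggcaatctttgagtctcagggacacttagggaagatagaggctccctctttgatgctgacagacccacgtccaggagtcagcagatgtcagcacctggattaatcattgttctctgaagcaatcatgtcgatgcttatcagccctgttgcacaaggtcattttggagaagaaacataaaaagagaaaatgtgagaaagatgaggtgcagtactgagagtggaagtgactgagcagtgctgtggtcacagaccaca
Prl6a1 held TATAAA at 241, 100 (reverse strand) and 39 bases before the start and AGATAA at 192. Prl3b1 held TATAAA at 134 bases before the start on the reverse strand, and the other 3 windows held none of the motifs. The Psg21 and Psg23 windows were identical at 293 of 296 aligned bases, with 3 mismatches. Upstream windows were found for 41 of 48 members (45 windows, since some genes have several starts). AGATAA was in 12 of 24 Prl windows, 1 of 11 Psg windows and none of the 8 Cts and 2 Tpbp windows, or 28.9% of all 45, against 11.2% of 32851 mouse windows of the same length. TGANTCA was in 33.3% of the members' windows (9 Prl, 4 Psg, 2 Tpbp) against 7.81% of all, and TATAAA in 17.8% (5 Prl, 3 Cts) against 13.6%. Several members are recent copies of each other, so their windows are not independent, and a match is a string of letters, not a site of binding.

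The decidual prolactin gene Prl8a2 was higher in each KO library than in any WT library. Prl8a2 (ENSMUSG00000018259, mm10 chromosome 13, 27345673 to 27354216, plus strand) encodes decidual prolactin-related protein, a secreted product of the mouse decidua. It had 71.7, 80.9 and 23.7 CPM in KO replicates 1, 2 and 3, against 10.8, 3.66 and 16.9 CPM in WT replicates 1, 2 and 3. These levels rest on 4662, 4501 and 945 counts in KO and 513, 193 and 933 in WT. In bulk RNA, fewer cells of a type and less RNA per cell cannot be told apart. KO replicates 1 and 2 stood well above all WT libraries, while KO replicate 3 was 1.38-fold above the highest WT library after TMM scaling, a correction for library composition. Means were 58.7 ± 30.7 CPM in KO and 10.5 ± 6.62 CPM in WT (SD, n = 3 each). The log2 change was 2.49 ± 0.63 (SE), and it missed the threshold of 0.05 in edgeR's quasi-likelihood test over all 19599 tested genes (unadjusted p = 0.00465, adjusted p = 0.314). DESeq2 on the same counts passed it (log2 change 2.49, adjusted p = 0.000607).

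Prl6a1, a prolactin-like gene found in both decidual and trophoblast cells of the mouse, showed the same order between genotypes at a lower level. It had 4.46, 2.52 and 5.51 CPM in KO replicates 1, 2 and 3, against 1.67, 1.33 and 1.68 CPM in WT replicates 1, 2 and 3. The groups did not overlap, and the WT libraries lay close together. The lowest KO library was 1.49-fold above the highest WT library after TMM scaling. The log2 change was 1.40 ± 0.31 (SE; edgeR unadjusted p = 0.00261, adjusted p = 0.283), and DESeq2 gave an adjusted p of 0.00394. KO replicate 3, the lowest KO library for Prl8a2, was the highest for Prl6a1, so the 2 genes did not keep a fixed ratio: Prl8a2 was 16.1, 32.2 and 4.30 times Prl6a1 in KO replicates 1, 2 and 3, and 6.49, 2.76 and 10.03 times in WT replicates 1, 2 and 3.

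The other decidual member, Prl3c1 (prolactin-like protein J), had 1 count in KO replicate 1 and 0 in the other 5 libraries. A level under 3 counts, or 0.0461 to 0.0751 CPM in KO and 0.0543 to 0.0634 CPM in WT, was taken as too low to measure at this depth. Levels under this limit are printed in later paragraphs and rest on fewer than 3 counts. Prl8a2 was therefore the decidual member that carried nearly all counts.

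**Figure D1:**
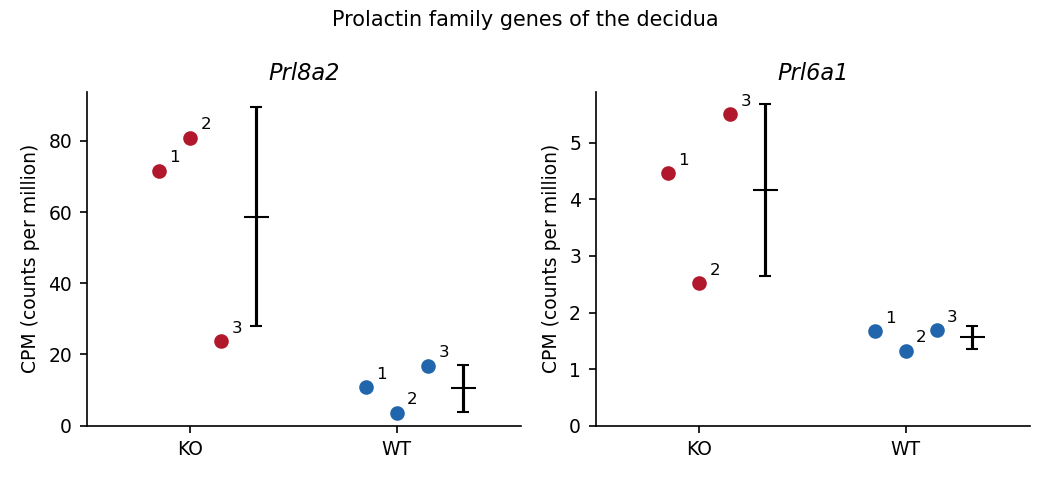
Levels of Prl8a2 (left) and Prl6a1 (right) in CPM, with KO libraries in red and WT libraries in blue, numbered by replicate; the black bar is the mean and the whiskers 1 SD (n = 3). In both genes each KO library lies above each WT library, with Prl8a2 at 23.7 to 80.9 CPM in KO and 3.66 to 16.9 CPM in WT.

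Of the 48 members, 29 had enough counts to be tested (1 decidual, Prl6a1 and 27 trophoblast). In edgeR 0 of the 29 were higher and 0 lower past the threshold, against 0% and 0.0204% of all tested genes. At an unadjusted p under 0.05 there were 2 higher members and 0 lower ones, against 5.27% and 3.29% of all tested genes. DESeq2 called Prl8a2 and Prl6a1 higher and none lower, against 1.19% higher and 0.646% lower over all genes. DESeq2 gave an adjusted p to 18 of the 44 members with any count. A limma fit called 0 members. The groups failed to overlap in 2 of the 29 tested members, Prl8a2 and Prl6a1, both with KO above WT. Over all tested genes this was so in 7.22% with KO above and 7.01% with KO below. The share among members was therefore no higher than that over all genes. With the replicate number as a block edgeR again called 0 members, against 0.0102% higher and 0.0255% lower over all genes. No trophoblast member passed the test in any of these fits. In DESeq2, Prl2a1, Tpbpa, Tpbpb, Psg29 and Ctsj had no adjusted p, so that fit could neither pass nor fail them.

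The trophoblast members differed more between libraries of 1 genotype than between genotypes. Their summed level was 946, 24.7 and 2.43 CPM in KO replicates 1, 2 and 3, against 115, 66.0 and 117 CPM in WT replicates 1, 2 and 3. KO replicate 1 lay above all WT libraries and KO replicates 2 and 3 below all of them. The KO mean was 325 ± 539 CPM and the WT mean 99.3 ± 28.9 CPM (SD, n = 3 each), a log2 ratio of 1.71 that became −2.87 without KO replicate 1. Of the 27 tested members, 20 had positive and 7 negative log2 changes (median 1.64, against 0.01 over all tested genes). Without KO replicate 1, none was positive and 27 were negative (median −2.83). With the replicate number as a block 13 were positive and 14 negative, and in limma, which works here on logs of the authors' normalized values, 6 were positive and 21 negative.

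Decidual and trophoblast levels took different orders over the libraries. The decidual sum (Prl8a2 and Prl3c1) was 0.0758, 3.27 and 9.74 times the trophoblast sum in KO replicates 1, 2 and 3, against 0.0945, 0.0555 and 0.144 times in WT replicates 1, 2 and 3. KO replicates 2 and 3 thus had more Prl8a2 than any WT library and less trophoblast RNA than any WT library. KO replicate 1 had high levels of both, at a ratio within the WT range.

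**Figure D2:**
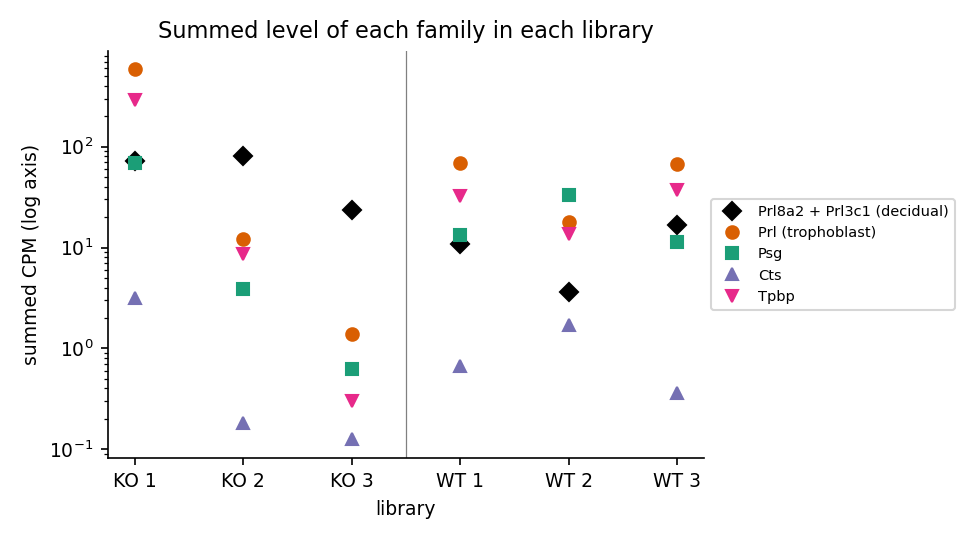
Summed CPM of the decidual members and of each trophoblast family in each library, on a log axis, with the 3 KO libraries left of the grey line and the 3 WT libraries right of it. Trophoblast families peak in KO 1 and are lowest in KO 3, while the decidual sum stays at 23.7 to 80.9 CPM in all KO libraries.

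Trophoblast prolactins made up the largest part. Their sum over 22 genes was 587, 12.1 and 1.38 CPM in KO replicates 1, 2 and 3, against 68.5, 17.8 and 67.9 CPM in WT replicates 1, 2 and 3. Prl2a1 (mm10 chromosome 13, 27801654 to 27808729, plus strand), encoding prolactin-like protein M, led with 268, 4.78 and 0.451 CPM in KO and 31.3, 1.23 and 32.3 CPM in WT. Its log2 change of 2.09 ± 1.88 (SE, edgeR adjusted p = 0.868) was close to its own error. Prl7b1 (prolactin-like protein N), known from invasive glycogen trophoblast in mice, had 112, 1.56 and 0.200 CPM in KO and 13.2, 0.228 and 14.3 CPM in WT. Both genes ranked the libraries alike, with KO replicate 1 first, WT replicates 1 and 3 next and close together, and WT replicate 2 low.

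The proliferin group followed. Prl2c2, proliferin, is an angiogenic hormone of trophoblast giant cells, and had 31.8, 1.24 and 0.100 CPM in KO replicates 1, 2 and 3 and 3.32, 0.133 and 2.95 CPM in WT replicates 1, 2 and 3. Prl2c5, a close copy, had 53.8, 1.10 and 0.175 CPM in KO and 3.82, 0.284 and 4.60 CPM in WT. Prl2c1 had 28, 0.126 and 0.0501 CPM in KO and 2.68, 0 and 2.43 CPM in WT, so it had no count in WT replicate 2, where 3 counts equal 0.0569 CPM. Levels within this group are uncertain gene by gene, because copies share sequence: 83.3% of the 50-base words in Prl2c2 transcripts, 59.99% in Prl2c3, 35.1% in Prl2c5 and 26.4% in Prl2c1 occur in transcripts of another gene (GENCODE M21), against 0% for Prl8a2, Prl2a1 and Prl3b1.

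Among prolactins with other known roles, Prl7d1, proliferin-related protein and an inhibitor of vessel growth, had 43.0, 0.593 and 0.0751 CPM in KO replicates 1, 2 and 3 and 5.22, 0.152 and 5.05 CPM in WT replicates 1, 2 and 3. Its order of libraries matched that of proliferin. Prl7c1 had 6.61, 0.126 and 0 CPM in KO and 0.507, 0 and 0.616 CPM in WT. Prl8a6 had 22.8, 0.701 and 0.0501 CPM in KO and 3.57, 5.04 and 2.68 CPM in WT, and Prl8a9 had 9.19, 0.503 and 0 CPM in KO and 1.82, 4.25 and 1.09 CPM in WT. For these 2 genes WT replicate 2 was the highest WT library and not the lowest.

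Prl3b1, placental lactogen II, is the main lactogen of the second part of mouse pregnancy and acts through the prolactin receptor. It had 2.17, 0.180 and 0.0250 CPM in KO replicates 1, 2 and 3, against 1.31, 4.23 and 0.435 CPM in WT replicates 1, 2 and 3. WT replicate 2 was above all other libraries, KO replicate 1 included (log2 change −1.30 ± 1.25 SE, edgeR adjusted p = 0.882). The genes of placental lactogen I, which giant cells make in the first part of pregnancy, were barely detected: Prl3d1 and Prl3d3 had 0 counts in all 6 libraries and Prl3d2 had 3 in all.

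Tpbpa and Tpbpb are secreted proteins that mark spongiotrophoblast and, for Tpbpa, the glycogen cells derived from the same layer. Tpbpa had 241, 7.15 and 0.250 CPM in KO replicates 1, 2 and 3, against 27.5, 9.08 and 33.6 CPM in WT replicates 1, 2 and 3 (log2 change 1.84 ± 1.66 SE, edgeR adjusted p = 0.869). Tpbpb had 47.0, 1.49 and 0.0501 CPM in KO and 4.65, 4.53 and 4.04 CPM in WT (log2 change 1.89 ± 1.53 SE, edgeR adjusted p = 0.840). The WT libraries were almost level for Tpbpb while KO spanned the range from highest to lowest in both genes. With the replicate number as a block the log2 changes of Tpbpa and Tpbpb were −0.55 and −0.88. Per kilobase of exon, mean levels over the 6 libraries were 63.8 CPM for Prl2a1, 36.9 for Prl8a2, 25.4 for Prl7b1 and 24.9 for Tpbpa.

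The 13 Psg genes summed to 68.3, 3.85 and 0.626 CPM in KO replicates 1, 2 and 3, against 13.4, 32.9 and 11.4 CPM in WT replicates 1, 2 and 3. Psg29 was the most abundant, with 34.9, 1.20 and 0 CPM in KO and 4.86, 0.702 and 6.03 CPM in WT (log2 change 1.66 ± 1.66 SE, edgeR adjusted p = 0.887). Psg29 thus had the order of libraries seen for Prl2a1. Psg16 had 5.23, 0.413 and 0.100 CPM in KO and 1.94, 8.69 and 0.923 CPM in WT (log2 change −0.99 ± 1.29 SE, edgeR adjusted p = 0.919). Psg23 had 3.6, 0.341 and 0.0250 CPM in KO and 1.58, 8.27 and 0.525 CPM in WT, and Psg21 had 3.12, 0.216 and 0.0250 CPM in KO and 1.23, 7.36 and 0.507 CPM in WT. These 3 genes were highest in WT replicate 2.

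Psg27 had 5.83, 0.395 and 0 CPM in KO replicates 1, 2 and 3 and 0.824, 2.96 and 0.760 CPM in WT replicates 1, 2 and 3. Psg28 had 2.97, 0.108 and 0 CPM in KO and 0.570, 1.40 and 0.290 CPM in WT. Both were highest in KO replicate 1, with WT replicate 2 next. Psg22, a Psg of giant cells in mice, had 5.84, 0.359 and 0.125 CPM in KO and 0.866, 0.417 and 0.778 CPM in WT. Psg18 had 3.89, 0.162 and 0.0250 CPM in KO and 0.359, 0.531 and 0.362 CPM in WT. Of the 50-base words of Psg23, Psg26, Psg28 and Psg21, 37.2%, 35.9%, 31.3% and 26.9% occur in another gene, so levels of single Psg genes are uncertain in part.

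Psg17, picked out here after its values were seen, did not share the excess of KO replicate 1. It had 0.446, 0.539 and 0.275 CPM in KO replicates 1, 2 and 3 and 0.507, 0.740 and 0.887 CPM in WT replicates 1, 2 and 3 (log2 change −0.75 ± 0.36 SE, edgeR adjusted p = 0.647). KO replicate 1 was below all WT libraries for this gene.

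The placental cathepsins were barely detected. Their 8 genes summed to 207, 10 and 5 counts in KO replicates 1, 2 and 3 and 32, 89 and 20 counts in WT replicates 1, 2 and 3. Ctsj was the only one with enough counts to be tested, at 2.46, 0.0719 and 0.125 CPM in KO and 0.422, 0.247 and 0.272 CPM in WT (log2 change 1.53 ± 1.16 SE, edgeR adjusted p = 0.821). Cts3 had 20, 1 and 0 counts in KO and 2, 47 and 2 in WT, and Ctsm had 7, 3 and 0 in KO and 4, 22 and 0 in WT. Ctsr had 19, 0 and 0 counts in KO and 3, 4 and 3 in WT. Ctsq, a protease of sinusoidal giant cells of the mouse labyrinth, had 1, 1 and 0 counts in KO and 2, 2 and 0 in WT, and Cts7 and Cts8 had 0 in all 6 libraries.

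The remaining trophoblast members fall outside the most abundant of their families. Prl2c3 had 451 counts in all and Prl4a1 170, Psg26 184, Prl8a8 119 and Psg19 104. The other 9 (Prl7a1, Prl7a2, Prl5a1, Prl2b1, Prl3a1, Psg25, Prl8a1, Psg20 and Cts6) had 3 to 79 counts in all. Of all 48 members, 21 were detected in all 6 libraries, 23 in some and 4 in none.

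**Figure D3:**
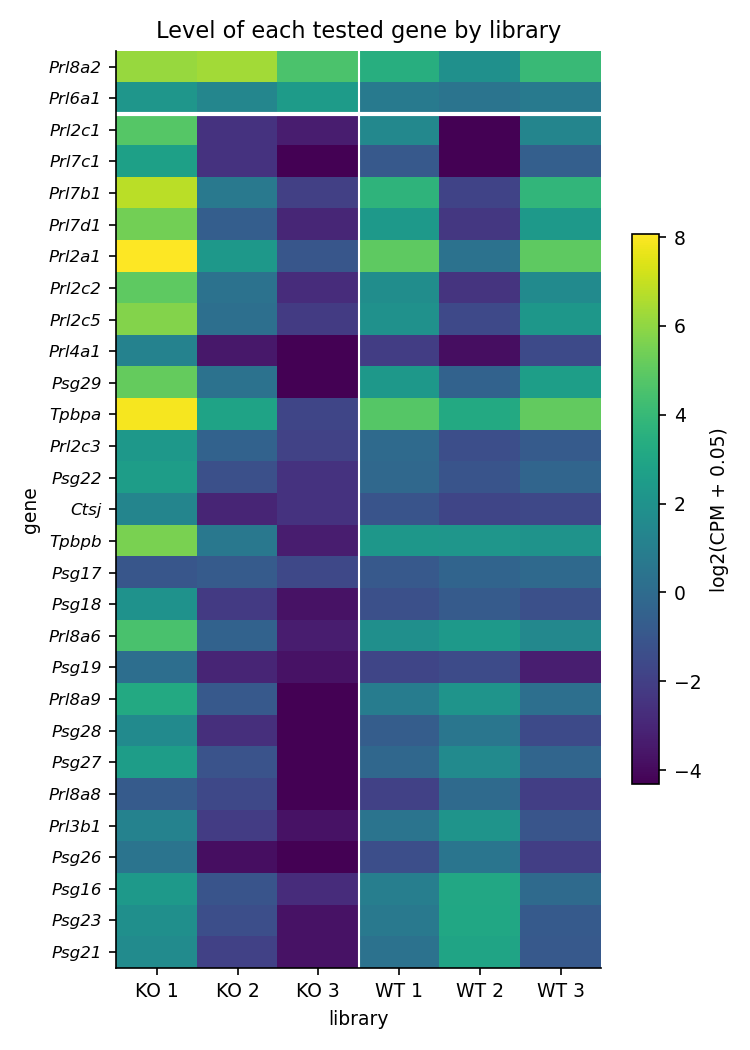
Level of the 29 tested members in each library as log2 of CPM plus 0.05, with Prl8a2 and Prl6a1 above the white line and the 27 trophoblast members below it, ordered by the ratio of WT 2 to the mean of WT 1 and WT 3. Below the line KO 1 is brightest for most genes and KO 3 darkest, and WT 2 changes from the darkest WT library at the top to the brightest at the bottom.

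KO replicate 1 held more trophoblast RNA than WT replicates 1 and 3, in a similar order of genes. Over the 27 trophoblast members with at least 100 counts, its level was 6.75 times that of WT replicate 1 in the median (0.880 to 14.1) and 8.30 times that of WT replicate 3 (0.503 to 19.2). It was higher for 26 of 27 in both, Psg17 being the exception. Ranks of the 27 members correlated at a Spearman rho of 0.886 between KO replicate 1 and WT replicate 1, 0.911 between KO replicate 1 and WT replicate 3, and 0.930 between the 2 WT libraries. KO replicate 2, with 1377 trophoblast counts, had a rho of 0.839 and 0.880 with WT replicates 1 and 3. KO replicate 3, with 97 trophoblast counts, had 0.50 and 0.527. These are correlations over genes, which share gene length and cell of origin, and are given as a description.

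WT replicate 2 had another make-up. Its ranks correlated at −0.0539 to 0.216 with the other 5 libraries. Prl genes gave 26.9% of its trophoblast counts, against 59.7% and 57.9% in WT replicates 1 and 3. Psg genes gave 49.9% of its counts, against 11.7% and 9.73% there, and Tpbp genes 20.6%, against 28.01% and 32.1%. In KO replicates 1, 2 and 3 Prl genes gave 62.0%, 48.8% and 56.7%, and Psg genes 7.22%, 15.5% and 25.8%.

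**Figure D4:**
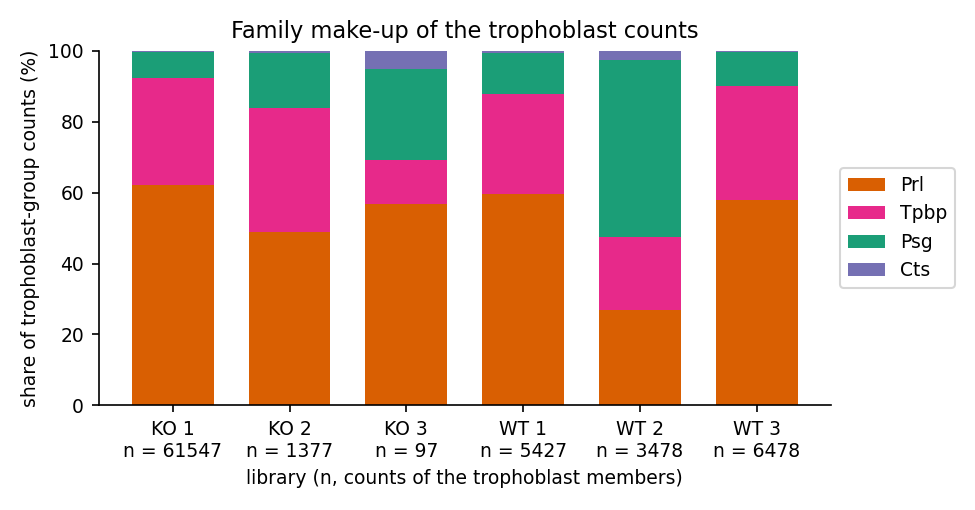
Share of the trophoblast-group counts that came from the Prl, Tpbp, Psg and Cts genes in each library, in percent, with the number of counts under each bar; KO libraries are on the left. Psg genes take 49.9% of the counts in WT 2 and 7.22% to 25.8% in the other libraries.

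Members fell on both sides in WT replicate 2. Of the 27 with at least 100 counts, 14 were higher and 13 lower there than the mean of WT replicates 1 and 3. The largest deficits were 0.0166-fold for Prl7b1, 0.0296-fold for Prl7d1 and 0.0388-fold for Prl2a1, besides Prl2c1 and Prl7c1 with no count. The largest excesses were 8.50-fold for Psg21, 7.84-fold for Psg23, 6.06-fold for Psg16, 5.08-fold for Psg26 and 4.85-fold for Prl3b1. Tpbpb (1.04-fold) and Psg17 (1.06-fold) were nearly level. Among members under 100 counts Cts3 was 22.7-fold and Ctsm 9.88-fold higher. This comparison is between single libraries of 1 genotype and has no replicate check.

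The Prl genes were also read by position on chromosome 13, in stretches drawn after the values were seen. Between 27241847 and 27564606, the 4 trophoblast members with at least 100 counts (Prl3b1, Prl8a6, Prl8a8 and Prl8a9) were 1.61-fold to 4.85-fold higher in WT replicate 2. Prl8a2 and Prl6a1 lie in the same stretch and were lower there, at 0.264-fold and 0.792-fold, so position alone did not separate the Prl genes. The 6 trophoblast members with at least 100 counts between 27601819 and 28023559 (Prl7b1, Prl7d1, Prl7c1, Prl2a1, Prl2c1 and Prl4a1) were all lower, at no more than 0.0791-fold. The 3 Prl2c genes between 12790816 and 13191923 were also lower (0.0424-fold to 0.464-fold). Rarer genes did not all follow: of 3 with under 100 counts between 27633366 and 28151611, Prl7a2 and Prl5a1 were higher and Prl7a1 had no count. On chromosome 7 Psg16 (17074040 to 17133450) and Psg29 (17203477 to 17215760) lie close together and took opposite positions, at 6.06-fold and 0.129-fold.

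**Figure D5:**
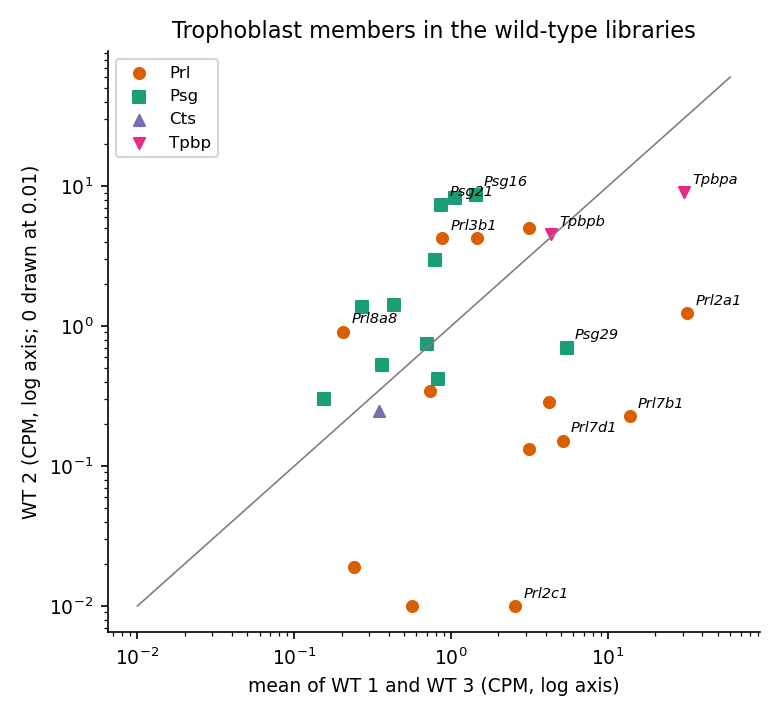
Level of the 27 trophoblast members with at least 100 counts in WT 2 against the mean of WT 1 and WT 3, in CPM on log axes, with 0 drawn at 0.01 and the line marking equal levels. Most Psg genes, Prl3b1 and Prl8a8 lie above the line, and Prl2a1, Prl7b1, Prl7d1, Prl2c1 and Psg29 lie far below it.

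Genes outside the families were then ranked by their excess in KO replicate 1. Their high level there follows from this choice and is no separate result. The 10 with the highest ratio of KO replicate 1, at 1 CPM or more there, to a median above 0 in the other 5 libraries, were Cdx2, 1600025M17Rik, Sult1e1, Rhox6, Trap1a, Sct, Serpinb9d, Plac1, Fthl17a and Serpinb9g, with ratios of 31.1 to 98.1. Cdx2 is a transcription factor of early trophoblast and gut, and had 1.86, 0.0180 and 0 CPM in KO replicates 1, 2 and 3 and 0.148, 0.0190 and 0.127 CPM in WT replicates 1, 2 and 3. Sult1e1, the estrogen sulfotransferase gene, had 38.6, 0.629 and 0.100 CPM in KO and 3.82, 0.190 and 3.42 CPM in WT. Sct, which encodes secretin, had 45.6, 0.971 and 0.15 CPM in KO and 3.65, 0.379 and 3.93 CPM in WT. In these 3 genes WT replicate 2 was again the lowest WT library, as for Prl2a1.

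Placental genes that the symbol rule does not take gave no call. Of 26 such genes 17 were tested, with 10 positive and 7 negative log2 changes (median 0.45). EdgeR, DESeq2 and limma called 0 of them, with 2 above and 0 below WT at an unadjusted edgeR p under 0.05. Over all tested genes 5.27% were above and 3.29% below. The smallest p values were those of Eomes, Slc16a3, Slc16a1 and Elf5, with log2 changes of 1.08, 0.81, −0.38 and 0.72 and edgeR adjusted p of 0.376, 0.568, 0.608 and 0.621. Of the labyrinth markers, Gcm1 had 2 counts in all, in WT replicate 3, and Synb had 2 in all, in KO replicate 3. Syna, of one syncytial layer, was low but found in each library, at 0.169, 0.252 and 0.326 CPM in KO replicates 1, 2 and 3 and 0.465, 0.417 and 0.217 CPM in WT replicates 1, 2 and 3 (edgeR adjusted p = 0.798).

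Decidual genes outside the families gave no edgeR call. All 19 were tested, with 12 positive and 7 negative log2 changes (median 0.03). In edgeR 0 passed, with 2 above and 3 below WT at an unadjusted p under 0.05. Over all tested genes 5.27% were above and 3.29% below. DESeq2 called 0 higher and 2 lower, against 1.19% and 0.646% over all genes, and limma called 0. The smallest p values were those of Gja1 (log2 change −1.34, edgeR adjusted p = 0.237), Adm (−0.69, 0.325), Htra3 (−0.60, 0.345) and Cryab (0.46, 0.493). Most genes of this list are also expressed in other uterine stroma or muscle. Ctla2a, an inhibitor of cathepsin L-like proteases that decidua makes in quantity, had 10220, 6289 and 6733 CPM in KO replicates 1, 2 and 3 and 9657, 9359 and 5516 CPM in WT replicates 1, 2 and 3.

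Markers of natural killer cells, which populate the decidua, all had positive log2 changes (14 of 14, median 1.07). None passed in edgeR (0), while 7 were above and 0 below WT at an unadjusted p under 0.05. Over all tested genes, the background for each list here, 5.27% were above and 3.29% below. DESeq2 called 3 higher and 0 lower, against 1.19% and 0.646% over all genes, and limma called 0. Il2rb, Gzma, Gzmb and Eomes had the smallest p, with log2 changes of 1.29, 1.53, 1.29 and 1.08 and edgeR adjusted p of 0.180, 0.279, 0.344 and 0.376; Eomes is also a trophoblast gene. Summed levels overlapped between genotypes, at 109, 21.1 and 18.7 CPM in KO replicates 1, 2 and 3 and 17.7, 10.8 and 48.2 CPM in WT replicates 1, 2 and 3. The granzyme genes of the list did not move as 1 group. Gzma had 1.03, 0.791 and 0.851 CPM in KO and 0.338, 0.379 and 0.199 CPM in WT, and Gzmb had 3.09, 1.56 and 2.33 CPM in KO and 1.12, 0.626 and 1.09 CPM in WT, with no overlap in either. Il2rb, Ncr1, Nkg7 and Eomes also had KO above WT without overlap, while Prf1, Gzmc, Klrg1 and Klrb1c overlapped. Over all tested genes, 7.22% had KO above WT without overlap. Gzmd, Gzme, Gzmf and Gzmg were at 0 to 0.15 CPM in KO replicate 3, below every WT library, and highest in KO replicate 1. Their part in the decidual difference was not tested.

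The yolk sac and fetal list held the one gene that edgeR called in any of the lists, Alb, which was lower in KO (log2 change −5.81 ± 0.38 SE, edgeR adjusted p = 0.00699). Alb, the albumin gene, had 0.0615, 0.0719 and 0.0250 CPM in KO replicates 1, 2 and 3 and 3.61, 3.34 and 2.70 CPM in WT replicates 1, 2 and 3. Of the 14 genes 8 were tested, 3 positive and 5 negative (median −0.38). At an unadjusted edgeR p under 0.05, 1 was above and 3 below WT, against 5.27% and 3.29% over all tested genes. DESeq2 and limma each called 1 lower, against 0.646% over all genes in DESeq2. Amn, Afp and Apoa1 followed by p, with log2 changes of 1.55, −1.38 and −1.39. The embryonic globin genes Hbb-bh1 and Hba-x had 0 counts in all 6 libraries, and Hbb-y had 6, all in KO replicate 2. Afp had 1.20, 0.629 and 0.376 CPM in KO replicates 1, 2 and 3 and 1.48, 2.75 and 1.57 CPM in WT replicates 1, 2 and 3, so KO replicate 1 was not its highest library. Rhox5, of the same list, was highest in KO replicate 1. It had 2.60, 0.0899 and 0.0250 CPM in KO and 0.211, 0.0379 and 0.235 CPM in WT (log2 change 2.52, edgeR adjusted p = 0.732).

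Genes of prolactin and growth hormone signalling gave no call. Prl, the pituitary hormone gene, had 0 counts in all libraries. The prolactin receptor gene Prlr, through which placental lactogens act, had 15.2, 30.9 and 29.3 CPM in KO replicates 1, 2 and 3 and 42.7, 36.2 and 27.5 CPM in WT replicates 1, 2 and 3 (edgeR adjusted p = 0.721). Of 9 tested pathway genes 7 were positive and 2 negative (median 0.19). EdgeR, DESeq2 and limma called 0, with 0 above and 1 below WT at an unadjusted edgeR p under 0.05. Socs2, a feedback inhibitor, had 165, 106 and 133 CPM in KO and 181, 201 and 186 CPM in WT (log2 change −0.50, edgeR adjusted p = 0.509). Jak2 and Cish had log2 changes of 0.50 and 0.43.

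Relatives and partners of the Psg and cathepsin proteins also gave no call. Of 9 tested Psg partners and Ceacam relatives 5 were positive and 4 negative (median 0.07), led by the integrin gene Itgb3 (log2 change −0.83, edgeR adjusted p = 0.480), Cd81, Tgfb1 and Itga5. Of 16 tested cathepsins of wide expression and inhibitors 12 were positive and 4 negative (median 0.10), led by Ctss (0.46, edgeR adjusted p = 0.343), Ctsz (0.37), Ctsb (0.65) and Ctsd (0.30). EdgeR called 0 in both lists, and so did DESeq2 and limma. At an unadjusted edgeR p under 0.05 the Psg list had 0 above and 1 below WT, and the cathepsin list had 2 above and 0 below. The inhibitor genes Stfa1, Stfa2 and Stfa3 had 0 counts in all libraries.

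Markers of other cells the tissue could hold moved differently between libraries. Summed uterine epithelium markers were 5258, 3211 and 8855 CPM in KO replicates 1, 2 and 3 and 4780, 2937 and 6886 CPM in WT replicates 1, 2 and 3. Mesothelial markers, of the outer lining of the uterus, summed to 582, 224 and 933 CPM in KO and 794, 409 and 787 CPM in WT. Krt19, which the epithelium list also holds, carried most of that sum. The other 7 markers summed to 91.3, 109.9 and 77.2 CPM in KO and 268, 158 and 141 CPM in WT. These sums did not overlap, but among the single markers only Msln kept the genotypes apart. Msln had 27.8, 13.95 and 18.1 CPM in KO and 72.3, 41.0 and 65.0 CPM in WT. Wt1 overlapped. In WT replicate 3 Upk3b, Lrrn4 and Bnc1 lay within the KO range, and Upk1b and Gpm6a below it. Of the 8 markers, 7 had negative log2 changes (median −2.23). Endothelial markers summed to 597, 830 and 447 CPM in KO and 700, 632 and 592 CPM in WT. Blood markers summed to 279, 75.1 and 105 CPM in KO and 50.04, 82.4 and 108 CPM in WT, highest in KO replicate 1 as the trophoblast members were. EdgeR called 0 genes in these 4 lists and the smooth muscle list, and limma likewise. At an unadjusted edgeR p under 0.05 there were 5 mesothelial genes below WT, 2 blood genes above WT and 0 others. Over all tested genes 3.29% were below and 5.27% above. DESeq2 called 1 mesothelial gene lower and 1 blood gene higher, against 0.646% lower and 1.19% higher over all genes. The part of these cells in the differences above was not tested.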

How the data were processed

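For each library the authors deposited raw counts by gene identifier. They also deposited a table of scaled values, a signal that equals the count multiplied by 1 factor per library (0.804 to 1.26). FastQC 0.73, HISAT2 2.2.1, HTSeq 0.9.1, DESeq2 2.11.40.7 and mm10 are listed in the submitters' processing notes without their roles. RNA was poly(A)-selected and the library kit directional, per the labels' protocols, while no source says whether counting used the strand. GENCODE M21 held 54804 of the 55055 identifiers.

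Genotypes were compared on the counts with edgeR 4.0.16 (R 4.3.3; filterByExpr, TMM, quasi-likelihood test, Benjamini-Hochberg over 19599 genes, threshold 0.05), tested on simulated data. The p-values measure the spread between the animals. Alternatives were RLE factors, no count filter, a replicate block, DESeq2 1.42.0, limma 3.58.1 (log2 of scaled value plus 1) and leaving out each library. Replicates differed by more than counting error, with a chi-square of 32.5 to 209 per degree of freedom. Same-numbered KO and WT libraries deviated together (correlations 0.147, 0.196 and 0.217, against −0.223 to 0.0611 for other pairs). The labels do not say whether the numbers pair the samples. Deviations from a mean of 3 libraries depend on each other, so this check cannot settle it. The main fit has no block. Blocked values are given for members and over all genes, but not for the other gene lists.

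The members, their grouping and the gene lists were chosen with earlier results of these data known. Genes named are the decidual members, the trophoblast members with the highest mean CPM (10 Prl, 8 Psg, 5 Cts, both Tpbp) and, of each placental, decidual, natural killer, fetal, signalling or relatives list, the 4 with the smallest p. Others named were picked after their values were seen. No gene overlapping a member had over 0.561% of its counts.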

Additional observations from a re-analysis of the deposited data

How the results depend on the processing

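The log2 changes of Prl8a2 and Prl6a1 kept their sign in all fits run, from 2.09 to 3.00 and from 1.16 to 1.66 with 1 library left out (edgeR adjusted p 0.177 to 0.808 and 0.105 to 0.785), and passed the threshold in DESeq2 alone. Without KO replicate 1 and WT replicate 2, a choice made after seeing the data, they were 1.91 and 1.22. The decidual log2 ratio stayed within 2.08 to 3.02 with 1 library left out.

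The trophoblast log2 ratio ran from −2.87 (without KO replicate 1) to 2.29, and was −3.09 without KO replicate 1 and WT replicate 2. With 1 library left out, log2 changes ran from −3.01 to 2.67 for Prl2a1, −2.63 to 2.42 for Tpbpa, −2.47 to 2.47 for Tpbpb, −2.61 to 2.24 for Psg29, −1.70 to 2.08 for Ctsj and −3.85 to 0.44 for Psg16; the sign turned without KO replicate 1, and for Psg16 without WT replicate 2. Prl3b1 (−4.16 to −0.10) and Psg17 (−0.96 to −0.53) kept theirs. Without both libraries Prl2a1, Tpbpa, Tpbpb, Psg29 and Ctsj had −3.58, −3.02, −2.45, −3.12 and −1.85. In limma they had −0.37, −1.41, −1.39, −1.57 and −0.036. With the replicate block Prl2a1, Tpbpa, Tpbpb, Psg29 and Ctsj had 0.79, −0.55, −0.88, 0.12 and 0.33, Psg16 had −1.95 and Prl3b1 −2.11, and no call on a member changed.

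Over all genes, calls were 0 higher and 4 lower in edgeR, 47 and 34 with no filter, 245 and 133 in DESeq2, 2 and 5 with the block, and 0 to 3 and 1 to 4 with 1 library left out (1 lower without WT replicate 1 and likewise without WT replicate 2, and 1 lower without KO replicate 1 and WT replicate 2 together). The cause of these differences was not tested. Low counts limit KO replicate 3 most, with 97 trophoblast counts, and the cathepsin genes. The trophoblast sum of KO replicate 3 was also the lowest when scaled to its library total, at 2.43 CPM.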
